A study of Mus musculus with 30 samples.

Results

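GABA-A receptors are pentameric chloride channels opened by the inhibitory transmitter GABA, and the genes described here encode 7 of their subunits. Gabra2, Gabra3, Gabra4 and Gabra5 encode α subunits, Gabrb1 and Gabrb2 encode β subunits and Gabrd encodes the δ subunit. The members were the rows of the deposited count table that carry these 7 gene symbols, of 17477 gene rows in all. The libraries came from hippocampus of adult C57 BL/6J mice that had been housed singly from weaning (social isolation, SI) or with cage mates (group housing, GH). The 30 libraries, 1 from each mouse, were of 8 SI females, 7 GH females, 7 SI males and 8 GH males, and these mice had also been used for behavioural tests. No mouse carried a transgene or received a drug as far as the labels state, all were killed with CO2, and which GH mice shared a cage was not given.

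The α and β subunits together form the GABA binding sites, and the α subunit sets much of a receptor's pharmacology and position on the neuron. Receptors with α2 are found at synapses, including those on the axon initial segment of pyramidal cells. Receptors with α5 are abundant in the hippocampus and lie largely outside synapses on pyramidal cells. The α4 and δ subunits pair in receptors of dentate granule cells and thalamic relay neurons, which carry a tonic current and respond to neurosteroids. The α3 subunit is found in monoaminergic nuclei, thalamic reticular nucleus and parts of cortex, and the β subunits are needed for assembly and trafficking of the receptor.

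On the NCBIM37 assembly, Gabra2 (ENSMUSG00000000560) spans chr5:71352296-71487088, Gabra4 (ENSMUSG00000029211) chr5:71960973-72049547 and Gabrb1 (ENSMUSG00000029212) chr5:72091171-72529628. These 3 genes belong to 1 cluster of subunit genes, with Gabra2 and Gabra4 on the minus strand and Gabrb1 on the plus strand. Gabra3 (ENSMUSG00000031343) lies at chrX:69678020-69902187, Gabra5 (ENSMUSG00000055078) at chr7:64663060-64765379, Gabrb2 (ENSMUSG00000007653) at chr11:42233259-42446092 and Gabrd (ENSMUSG00000029054) at chr4:154759089-154772221. The longest annotated coding transcript of Gabrb2 has 7665 bases, the most among the members, while that of Gabrd has 1921 bases, the fewest. The other 5 transcripts have between 2392 bases (Gabra2) and 4123 bases (Gabra4).

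The 250 bases before the annotated start are shown for Gabrb2 and Gabra2, the members whose levels varied most between libraries on a log scale, and for Gabra4 and Gabrb1, whose most upstream RefSeq starts overlap. The sequences are from RefSeq on GRCm38.p6 and are written 5′ to 3′ on the strand of the gene. Where a gene has several RefSeq starts the most upstream was taken, so motifs and CpG counts are those of that start only. Use of that start in hippocampus was not tested. RefSeq promoters matched 6 of the 7 members, and none was matched to Gabrd. Capitals mark a TATA box (TATAAA) or a GC box (GGGCGG, or CCGCCC where it lies on the opposite strand).
Gabrb2 (chr11:42420190-42420439, + strand): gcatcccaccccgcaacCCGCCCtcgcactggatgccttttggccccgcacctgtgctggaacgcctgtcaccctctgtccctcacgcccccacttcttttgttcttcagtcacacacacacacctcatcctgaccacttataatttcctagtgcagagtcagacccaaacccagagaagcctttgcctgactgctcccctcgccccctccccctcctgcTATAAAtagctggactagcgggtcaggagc
Gabra2 (chr5:71095850-71096099, - strand): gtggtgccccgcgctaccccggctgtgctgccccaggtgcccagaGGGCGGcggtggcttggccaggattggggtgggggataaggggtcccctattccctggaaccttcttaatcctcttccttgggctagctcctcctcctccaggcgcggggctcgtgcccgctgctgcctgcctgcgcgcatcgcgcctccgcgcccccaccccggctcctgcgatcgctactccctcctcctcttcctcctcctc
Gabra4 (chr5:71658309-71658558, - strand): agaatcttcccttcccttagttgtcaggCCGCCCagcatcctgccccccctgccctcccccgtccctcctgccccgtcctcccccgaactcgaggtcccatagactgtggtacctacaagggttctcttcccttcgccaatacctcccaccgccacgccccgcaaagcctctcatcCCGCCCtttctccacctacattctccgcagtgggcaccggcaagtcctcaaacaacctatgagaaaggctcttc
Gabrb1 (chr5:71657671-71657920, + strand): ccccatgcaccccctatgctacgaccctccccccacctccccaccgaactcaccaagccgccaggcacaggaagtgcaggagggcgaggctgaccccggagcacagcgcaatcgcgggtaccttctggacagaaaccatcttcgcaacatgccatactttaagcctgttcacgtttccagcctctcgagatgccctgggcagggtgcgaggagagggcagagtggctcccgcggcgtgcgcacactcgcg

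The Gabrb2 promoter held a TATA box starting 30 bases before the start, which none of the other 5 promoters held on the strand of the gene. TATAAA, searched on both strands, occurred in 12.4% of all 32851 RefSeq promoters of the same length, and in Gabra3 it lay on the opposite strand. A GC box began 205 bases before the start of Gabra2, while Gabra4 had 2 GC boxes on the opposite strand and Gabrb2 had 1. GGGCGG occurred in 32.7% of all promoters. Neither TGACGTCA (a cyclic AMP response element, in 1.55% of promoters) nor GCGTGGGCG (an EGR site, in 0.536%) occurred in any of the 6 windows. The Gabra2 and Gabrb1 windows held 18 CpG dinucleotides each, Gabra4 had 12, Gabra5 had 9 and Gabrb2 had 8, against a median of 6 over all promoters, whereas Gabra3 had 0. In the RefSeq annotation on GRCm38.p6, the most upstream starts of Gabra4 and Gabrb1 lie on opposite strands with 388 bases shared. The NCBIM37 annotation differs, since there the genes end and begin at the positions given above with no overlap. Which starts the annotation of the counts used, and its strand setting, was not given, so whether reads from that stretch counted for both genes was not tested.

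Total counts ranged from 18809000 to 100840000 per library, and SI males had fewer than GH males (median 25610000 against 49542000, exact permutation test, two-sided p = 0.0392). Marker genes of dentate granule cells, CA1 and CA3 had counts in every library. The libraries of SI males 25, 33 and 39 stood apart: the first principal component of the 15 male libraries carried 54.2% of the variance, and these libraries lay at 103, 88.9 and 63.4 on it, with all others at or below 0.75. They also had low counts of long transcripts. The slope of log2 CPM (counts scaled to library size) on the log2 of transcript length, taken in each library against the mean of all libraries, was -0.48, -0.46 and -0.37 in them, -0.08 in SI male 38, and between -0.04 and 0.17 in GH males. The male Log2FC of each member is therefore given with and without these 3 libraries.

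All 7 members were well detected, and their order in GH mice was led by Gabra5. Per length (CPM per kilobase of the longest coding transcript), the median over the 15 GH libraries was 69.9 for Gabra5, 42.9 for Gabrb1 and 25.6 for Gabra2. It was 16.9 for Gabra4, 15.9 for Gabra3, 13.7 for Gabrd and 8.34 for Gabrb2. The ranges of Gabra5 and Gabrb1 did not overlap. Gabrb1 was above Gabra2, and Gabra2 above Gabra4, in 15 of 15 GH libraries, although the ranges over libraries overlapped. The levels of Gabra4 and Gabra3 could not be ordered beyond their spread, with Gabra4 the higher in 10 of 15 GH libraries. Gabra3 was above Gabrd in 13 of 15, and Gabrd above Gabrb2 in 14 of 15. A length bias in a library acts on such values, and this order was not tested.

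**Figure D1:**
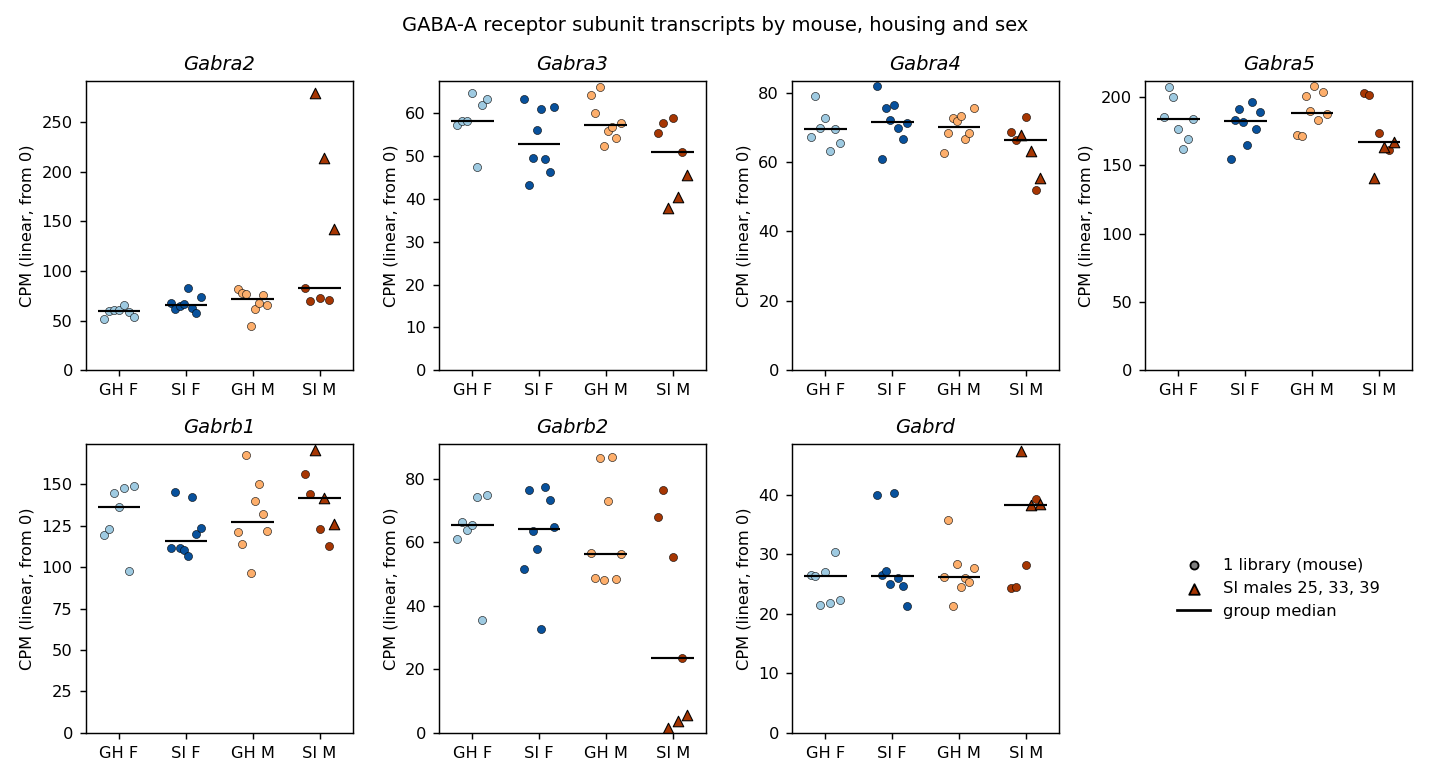
CPM of the 7 subunit genes in each of the 30 libraries (1 point per mouse, linear axes from 0), by housing and sex, with the group median as a line and SI males 25, 33 and 39 as triangles. Gabrb2 lay at 1.70 to 5.80 CPM and Gabra2 at 143 to 280 CPM in those 3 libraries, apart from the other 27, while the other members overlapped more.

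Whether isolation changed these subunits was tested within each sex over all genes that passed a filter on low counts, and all 7 members passed it in both sexes. In females, 624 of 16026 genes passed an adjusted p of 0.05 (3.89%), and 0 of the 7 subunit genes did. At an unadjusted p under 0.05, 1 member passed in females (Gabra2, higher in SI), against 20.2% of all genes (9.29% higher, 11% lower). In males, edgeR called 0 of 15833 genes (0%) and 0 members, and 1 member had an unadjusted p under 0.05 (Gabrb2, lower in SI), against 13% of all genes (7.38% lower, 5.63% higher). A Log2FC below 0 was fitted for 3 of 7 members in females and 4 of 7 in males, against 47.2% and 50.7% of all genes. In both sexes limma-voom, run without surrogate variables, called 0 members, among 838 of 16026 genes called in females and 0 of 15833 in males. DESeq2, with the surrogate variables of the edgeR fit, called 0 members in males, among 44 of 15833 genes. In females it called 1, Gabra2, among 1262 of 16026 genes. The median Log2FC (SI minus GH) of the members was 0.03 in females and -0.06 in males, beside 0.01 and -0.00197 over all genes tested. No member had SI and GH values that did not overlap in either sex, and over all genes 0.3% in females and 0.0568% in males did not overlap.

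**Figure D2:**
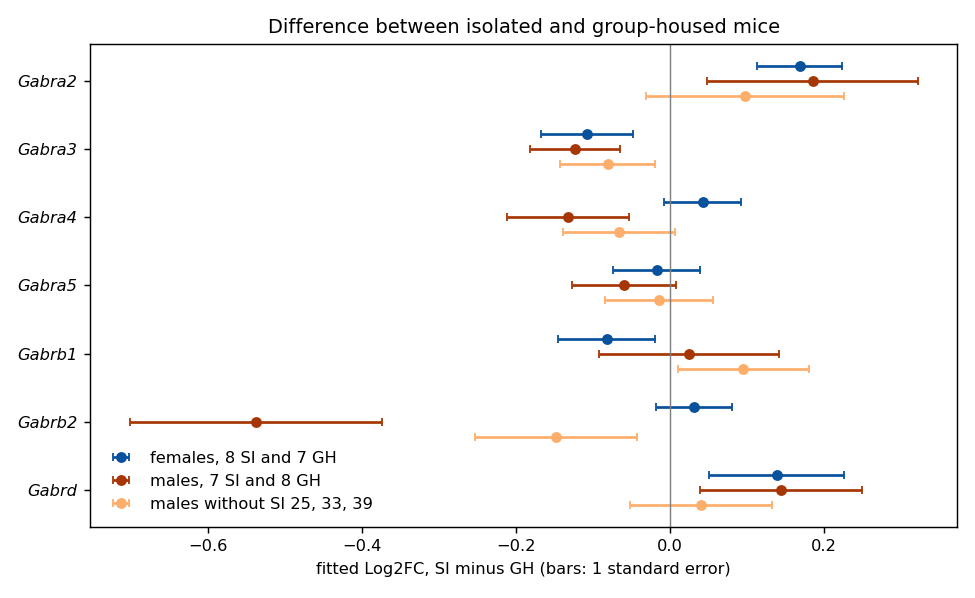
Fitted Log2FC (SI minus GH, horizontal axis) of each subunit gene with bars of 1 standard error, for females, for males, and for males without SI males 25, 33 and 39. Gabra2 lay above 0 and Gabra3 below 0 in all 3 fits, and Gabrb2 in males moved from -0.54 to -0.15 when the 3 libraries were left out.

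Gabra2, the synaptic α2 subunit, was the member nearest to the threshold in females. Its CPM ran from 51.1 over a median of 59.8 to 66.1 in GH females and from 57.5 over 65.6 to 82.8 in SI females. Thus 4 of 8 SI females lay above every GH female, 7 of 8 lay above the GH median, and the groups overlapped. The Log2FC was 0.17 with a standard error of 0.0555 (95% interval 0.05 to 0.29, edgeR adjusted p = 0.0963). With DESeq2 and the same covariates the adjusted p was 0.04997, just under the threshold, at a Log2FC of 0.17. Without any 1 of the 15 female libraries the Log2FC stayed between 0.14 and 0.22, with no call. With no surrogate variables it was 0.19 (edgeR unadjusted p = 0.0170, not called). With the position digit of the titles in their place it was 0.20 (edgeR adjusted p = 0.342). With all 4 groups in one fit it was 0.19 (edgeR unadjusted p = 0.120, adjusted p = 0.395). With 1 surrogate variable more it was 0.17 (edgeR adjusted p = 0.0706). The call in females was thus made by DESeq2 only.

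In males the Gabra2 values lay in separate ranges within the SI group. GH males ran from 44.7 over a median of 71.5 to 81.9 CPM, and SI males 7, 8, 27 and 38 lay at 82.4, 69.8, 73.2 and 70.4 CPM. SI males 25, 33 and 39 lay at 280, 213 and 143 CPM, which was 3.91-, 2.98- and 1.996-fold the GH male median. Of 10013 genes with a GH male median of at least 10 CPM, 43, 87 and 284 had a higher ratio in those libraries. The fitted Log2FC was 0.19 (standard error 0.137, edgeR adjusted p = 0.557), 0.95 without surrogate variables (adjusted p = 0.133) and 0.10 without the 3 libraries (adjusted p = 0.833). An exact permutation test of log2 CPM with no covariates, two-sided, gave p = 0.0228 in males and p = 0.0247 in females, before any adjustment for the 14 such tests of the members. In males the same test gave p from 0.0559 (Gabrd) to 0.414 (Gabrb1) for Gabra4, Gabra5, Gabrb1 and Gabrd. In females it gave p from 0.186 (Gabra3) to 0.860 (Gabrb2) for the members other than Gabra2. All these tests in males included SI males 25, 33 and 39.

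Gabra3 had the lower mean in SI mice of both sexes, with no call in the fit of all libraries of either sex. In females CPM ran from 47.4 over 58.2 to 64.7 in GH and from 43.2 over 52.8 to 63.4 in SI. In males it ran from 52.3 over 57.3 to 66.1 in GH and from 37.98 over 51.0 to 58.9 in SI, and 4 of 7 SI males, namely 25, 33, 38 and 39, lay below every GH male. The Log2FC was -0.11 in females (95% interval -0.23 to 0.02, edgeR adjusted p = 0.337) and -0.12 in males (95% interval -0.25 to 0.00131, adjusted p = 0.385). Without SI males 25, 33 and 39 it was -0.08 in males (adjusted p = 0.746), and without SI male 27 it was -0.20 and passed (adjusted p = 0.0186), in a fit that called 2414 of 15790 genes. Without SI female 68 the female Log2FC was -0.06. On log2 CPM with no covariates, an exact permutation test, two-sided, gave p = 0.0230 in males and p = 0.186 in females, before any adjustment.

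Gabra4, which encodes the α subunit that partners δ, lay within narrow ranges. In females CPM was 63.3 to 78.96 in GH (median 69.6) and 61.0 to 81.9 in SI (median 71.7), at a Log2FC of 0.04 (95% interval -0.06 to 0.15). In males it was 62.7 to 75.5 in GH (median 70.1) and 52.01 to 73.1 in SI (median 66.4), at a Log2FC of -0.13 (95% interval -0.30 to 0.03). It was -0.07 without SI males 25, 33 and 39. The edgeR adjusted p was 0.688 in females and 0.465 in males. The lowest value was that of SI male 38, which did not belong to the 3 libraries apart, and without that mouse the male Log2FC was -0.021, against -0.20 without SI male 27 (adjusted p = 0.9995 and 0.0815).

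Gabra5, the most abundant member per length, differed little between housing groups. In females CPM was 162 to 207 in GH (median 184) and 154 to 197 in SI (median 182), with a Log2FC of -0.02 (95% interval -0.14 to 0.10). In males it was 172 to 208 in GH (median 189) and 141 to 203 in SI (median 167), with a Log2FC of -0.06 (95% interval -0.20 to 0.08), and of -0.014 without SI males 25, 33 and 39. The lowest male value, 141 CPM, was in SI male 25, and SI males 33, 38 and 39 lay at 163, 162 and 167 CPM, also below every GH male. The edgeR adjusted p was 0.904 and 0.723.

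Gabrb1, the more abundant β subunit of the pair, had overlapping values throughout. In females CPM was 97.6 to 149 in GH (median 136) and 107 to 145 in SI (median 116), and 6 of 8 SI females lay below the GH median. In males it was 96.5 to 168 in GH (median 127) and 113 to 171 in SI (median 142). The Log2FC was -0.08 in females (95% interval -0.22 to 0.05) and 0.02 in males (95% interval -0.22 to 0.27), where it was 0.10 without SI males 25, 33 and 39. Neither difference passed the test (edgeR adjusted p = 0.508 and 0.948).

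As a ratio of highest to lowest CPM, Gabrb2 spanned the widest range of any member, and the lowest values were those of SI males. In females it ran from 35.7 over a median of 65.4 to 74.8 CPM in GH and from 32.6 over 64.3 to 77.3 CPM in SI, with the lowest value of each group in GH female 78 and SI female 53. The female Log2FC was 0.03 (95% interval -0.07 to 0.14, edgeR adjusted p = 0.780). GH males lay between 48.02 and 86.8 CPM, with a median of 56.5. SI males 8, 7 and 27 lay within that range at 76.5, 68.1 and 55.4 CPM, whereas SI male 38 lay at 23.6 CPM. SI males 25, 33 and 39 lay at 1.70, 3.70 and 5.80 CPM, from 40, 82 and 107 counts. Gabrb2 thus varied over a wider range among the 7 SI males than between any pair of group medians.

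The low level of Gabrb2 in these libraries stood out among all genes. It was 33.3-, 15.3-, 9.75- and 2.39-fold below the GH male median in SI males 25, 33, 39 and 38. Among the 10013 genes with a GH male median of at least 10 CPM, only 8, 10, 6 and 9 had a lower ratio in these libraries. None of the 461 genes with a transcript of 7000 to 8500 bases had a lower ratio in any of them, and the median ratio of those genes was 0.567, 0.562, 0.612 and 0.830. Among those 461 genes, which also had a GH male median of at least 10 CPM, Gabrb2 thus had the lowest ratio in each of these libraries. The part of transcript length in its level was not tested here.

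The fitted difference in Gabrb2 depended on how these libraries entered the fit. The male Log2FC was -0.54 (standard error 0.164, 95% interval -0.88 to -0.19), with an unadjusted p of 0.00437 and an edgeR adjusted p of 0.30005. With no surrogate variables it was -0.91 (adjusted p = 0.288), and without SI males 25, 33 and 39 it was -0.15 (adjusted p = 0.744). Leaving out single libraries moved it between -1.06 without SI male 27 (adjusted p = 0.00271, with 2414 of 15790 genes called) and -0.12 without SI male 38 (adjusted p = 0.9995). An exact permutation test on log2 CPM without covariates, two-sided, gave p = 0.0222, again before any adjustment. Leaving out the 4 low libraries would leave 3 SI males, whose values lay inside the GH range.

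Gabrd, the δ subunit, was high in the same SI males in which Gabrb2 was low. SI males 25, 33, 38 and 39 lay at 47.3, 38.3, 39.3 and 38.6 CPM, above every GH male, and SI males 7, 8 and 27 at 24.4, 24.5 and 28.3 CPM. GH males ran from 21.3 over 26.2 to 35.8 CPM. In females it ran from 21.5 over 26.4 to 30.5 CPM in GH and from 21.4 over 26.3 to 40.3 CPM in SI, with SI females 41 and 53 at 39.9 and 40.3 CPM and above all others. The Log2FC was 0.14 in females (95% interval -0.05 to 0.32, edgeR adjusted p = 0.404) and 0.14 in males (95% interval -0.08 to 0.37, adjusted p = 0.551). In males it was 0.04 without SI males 25, 33 and 39.

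Per length, the make-up of the α and β transcripts also differed most in those SI males. Gabra2 made up 15.3% to 25.97% of the summed level of the 4 α genes in GH males and 21.3% to 59.4% in SI males, while Gabra5 made up 49.2% to 58.7% and 26.99% to 55.5%. Gabrb2 made up 12.9% to 18.9% of Gabrb1 and Gabrb2 together in GH males and 0.399% to 17.6% in SI males. In females the Gabra2 share was 17.4% to 23.6% in GH and 20.1% to 26.2% in SI, and the Gabrb2 share was 12.8% to 17.9% and 10.96% to 19.8%. These are shares of transcripts, and they do not give the make-up of receptors.

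Whether housing acted differently in the sexes was tested as an interaction over all 30 libraries, in which 0 of 16391 genes (0%) and 0 members passed. Gabrb2 was the only member with an unadjusted p under 0.05 (7.75% of all genes, 4.22% lower and 3.53% higher). In this fit, which had its own 4 surrogate variables, the male Log2FC was lower than the female by 0.30 (interaction -0.30, standard error 0.0800, unadjusted p = 0.000812). This value is not the difference between the Log2FC of the separate fits by sex, -0.54 in males and 0.03 in females. Gabrb2 ranked 27 of 16391 genes by p, with an edgeR adjusted p of 0.448. Without SI males 25, 33 and 39 the interaction was -0.18 (adjusted p = 0.524), and with 1 surrogate variable more it was -0.38 and passed (adjusted p = 0.0477). The interaction was below 0 for 5 of 7 members, against 53.7% of all genes, and for the members other than Gabrb2 it lay between -0.13 and 0.13, with edgeR adjusted p from 0.731 to 0.997.

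The members differed in how they followed the length slope of a library. Over deviations from the group means of the 30 libraries, Pearson's r of log2 CPM with the slope was 0.96 for Gabrb2, 0.61 for Gabra5, 0.39 for Gabra3, 0.30 for Gabrb1, -0.01 for Gabra4, -0.74 for Gabrd and -0.75 for Gabra2. Without SI males 25, 33 and 39, r remained at 0.92 for Gabrb2 and -0.72 for Gabrd. It was -0.02 for Gabra2, so the relation of Gabra2 rested on those 3 libraries, and it was 0.88 for Gabrb1. All points share their library and depth, so these are descriptions. With the length slope as a covariate in place of surrogate variables, the male Log2FC of Gabrb2 was -0.30 (adjusted p = 0.726), and with each library's length and GC trend removed it was -0.28 (adjusted p = 0.486). The part of RNA quality or library preparation in these values was not tested.

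**Figure D3:**
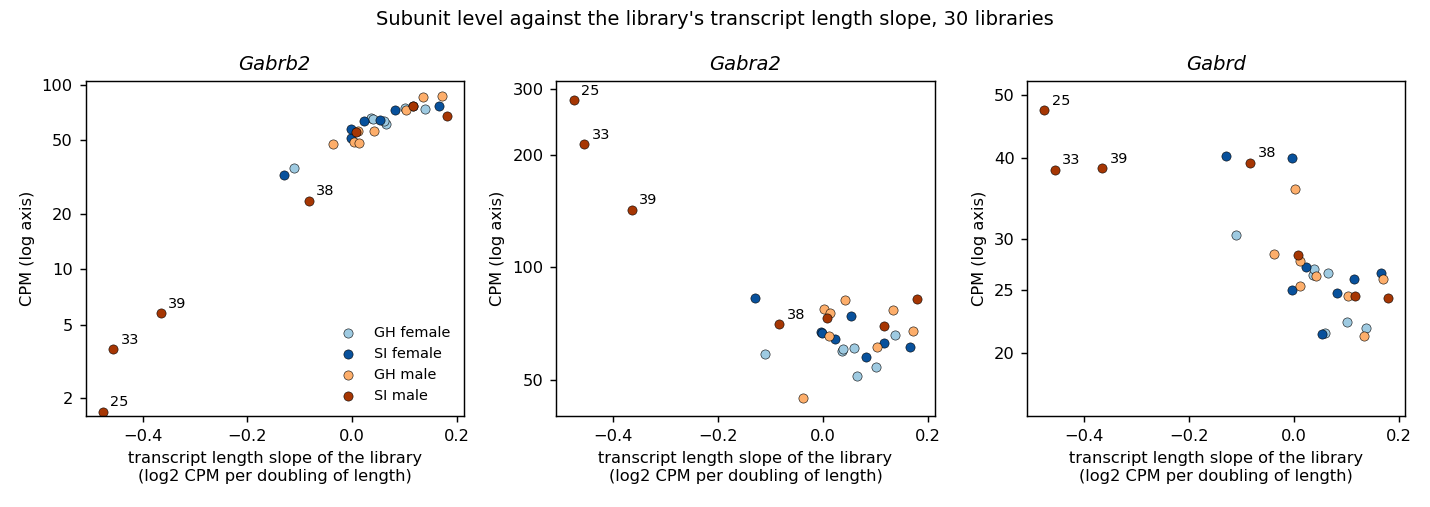
CPM (log axis) of Gabrb2, Gabra2 and Gabrd against the slope of log2 CPM on log2 transcript length in each of the 30 libraries, coloured by group, with SI males 25, 33, 38 and 39 labelled. Gabrb2 was higher at higher slopes along the whole range, Gabrd was higher where the slope was low, and Gabra2 was high only in 25, 33 and 39.

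Marker lists of other cell types moved with some of these values. Gabrb2 deviations had r = -0.89 with the mean log2 CPM of 8 microglia markers and 0.80 with that of 8 dentate granule markers (-0.69 and 0.67 without the 3 libraries). Of the 8 dentate granule markers, 8 had a Log2FC above 0 in females (median 0.19) with 2 called, Plk5 (0.45) and Lct (0.42), and 4 lay above 0 in males (median 0.06) with 0 called. The summed microglia marker level was 348 to 647 CPM in SI males and 357 to 442 CPM in GH males, and in the male fit 6 of these 8 markers had a Log2FC below 0 with 0 called. Markers of thalamus, where α4 and δ are abundant, summed to 68.1 to 217 CPM in SI males and 70.2 to 112 CPM in GH males. In SI males 25, 33, 38 and 39, which had the highest Gabrd, the sums were 119, 68.1, 217 and 86.0 CPM. Over deviations, r with the mean log2 CPM of these markers was 0.27 for Gabrd and -0.17 for Gabra4 (0.42 and -0.28 without the 3 libraries). In the male fit 8 of 8 thalamus markers had a Log2FC above 0, with a median of 0.57. Of them 7 had an unadjusted p under 0.05, against 5.63% of all genes (higher in SI), and as with all genes 0 had an adjusted p under 0.05. Markers of 1 tissue can vary together, so these 8 are not separate results to set against that share. Their mean log2 CPM had a median of 3.31 in SI and 3.16 in GH males (exact permutation test without covariates, two-sided p = 0.162). The 8 astrocyte markers lay below 0 in both fits, with 3 called in females and 0 in males. Interneuron markers summed to 1111 to 1827 CPM in SI males and 1093 to 1245 CPM in GH males. No marker of these lists was at 0 in any library. The part of cell or tissue make-up in the subunit values was not tested, and fewer cells of a type and less RNA per cell cannot be told apart in whole tissue.

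Pairs of members were compared over the same deviations. Over the 30 libraries, r of deviations was -0.85 between Gabra2 and Gabrb2, but -0.08 without SI males 25, 33 and 39. It was -0.74 between Gabra5 and Gabrd and -0.71 between Gabrb2 and Gabrd (-0.66 and -0.78 without them). Of all genes, 0.108% had a lower r with Gabra5 than Gabrd did, but 19.1% had a lower r with Gabrb2, so the second value was common among genes. Gabra5 and Gabrb2 had r = 0.64 over the 30 libraries, above that of 95.9% of genes with Gabra5, and 0.55 without the 3 libraries. Gabrb1 and Gabrd had -0.43 (-0.66 without the 3 libraries). Gabrb1 and Gabrb2 had r = 0.09, and 0.79 without the 3 libraries. Gabra4 and Gabrb1, the pair with overlapping RefSeq starts, had r = -0.04 and -0.12, and Gabra4 and Gabrd, which pair in receptors, had 0.03 and 0.06.

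Among 15770 genes tested in both sexes, the genes most like each member over the 30 libraries were named by r. They were 6230409E13Rik and Fam120c for Gabrb2 (both 0.99), Nmt2 (0.96) and Tcf4 (0.95) for Gabra2, and Pcdh19 (0.94) and Rbm27 (0.92) for Gabrb1. Zfp189 (0.87) and Enox2 (0.83) came first for Gabra5, Stard10 and Ramp3 (both 0.87) for Gabrd, Hpcal4 and Morn4 (both 0.82) for Gabra3, and Gm5796 (0.82) and Etohi1 (0.79) for Gabra4. Ramp3 is one of the thalamus markers used above. Without SI males 25, 33 and 39 the r of Nmt2 with Gabra2 was 0.76 and that of Fam120c with Gabrb2 was 0.97.

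Among the other genes of the GABA pathway lists, 5 were called in females, all lower in SI (2.93% of all genes were called lower), and 0 in males. With no surrogate variables, or with the position digit of the titles as a factor in their place, none of the 5 was called, as edgeR then called 0 of 16026 genes (1875 and 1915 at an unadjusted p under 0.05), and 88 genes were called without SI female 68. Of 21 genes tested for receptor scaffolding and trafficking, 3 fell in SI females. Iqsec3, a gephyrin-binding exchange factor of inhibitory synapses, fell by 0.29 on the log2 scale (373 ± 42.1 CPM in 7 GH and 291 ± 34.4 in 8 SI females, SD, edgeR adjusted p = 0.00703). Trak2 and Trak1, kinesin adaptors that carry cargo along axons and dendrites, fell by 0.22 and 0.18 (adjusted p = 0.0336 and 0.0343). Aldh5a1, which completes the breakdown of GABA to succinate, fell by 0.19 (111 ± 12.3 and 93.9 ± 6.94 CPM, adjusted p = 0.0458) and was the only call among 8 genes of GABA synthesis, release, uptake and breakdown. Wnk1, a kinase that regulates chloride cotransporters, fell by 0.22 (236 ± 36.0 and 196 ± 19.5 CPM, adjusted p = 0.0379) among 4 chloride transport genes.

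In the male fit these 5 genes had Log2FC of -0.38 (Iqsec3), -0.33 (Trak2), -0.21 (Trak1), -0.15 (Aldh5a1) and -0.34 (Wnk1), with edgeR adjusted p from 0.3003 to 0.398. Whether each of the 5 differed between the sexes was tested in the interaction, which called no gene. There all 5 had a term above 0, from 0.06 (Wnk1) to 0.18 (Aldh5a1, edgeR unadjusted p = 0.00592, adjusted p = 0.527). That fit had its own surrogate variables, so these terms are not differences of the separate fits. In it 4 of the 8 genes of GABA synthesis, release, uptake and breakdown had an unadjusted p under 0.05, against 7.75% of all genes. Of the 8 other GABA-A subunit genes tested in females, 3 had a Log2FC below 0 and 0 were called, and of 7 tested in males 4 lay below 0 and 0 were called. Gabrg1, which encodes γ1 and lies in the same cluster as Gabra2, had a Log2FC of -0.26 in females (23.2 ± 2.21 CPM in GH, 19.3 ± 4.33 in SI, adjusted p = 0.0708) and -0.22 in males (adjusted p = 0.464). Gabrq (θ) in females and Gabrr2 (ρ2) in males had Log2FC of -0.69 (adjusted p = 0.135) and 0.45 (adjusted p = 0.471) at group means below 1 CPM.

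None of 5 GABA-B receptor genes and none of 7 neurosteroid synthesis genes was called in either sex. The smallest p-values in the GABA-B list belonged to the receptor-associated Kctd12b and Kctd16 in females (Log2FC -0.14 and 0.11) and to Kctd12b and the receptor subunit gene Gabbr1 in males (-0.32 and -0.03). In the neurosteroid list they belonged to the 5α-reductase gene Srd5a1 and to Cyp11a1, which makes pregnenolone, in females (-0.11 and 0.18). In males they belonged to Srd5a3 and to Star, which carries cholesterol into mitochondria (0.09 and -0.09). The medians of these pathway lists ranged from -0.02 to 0.04 in females, and from -0.09 to 0.05 in males.

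**Figure D4:**
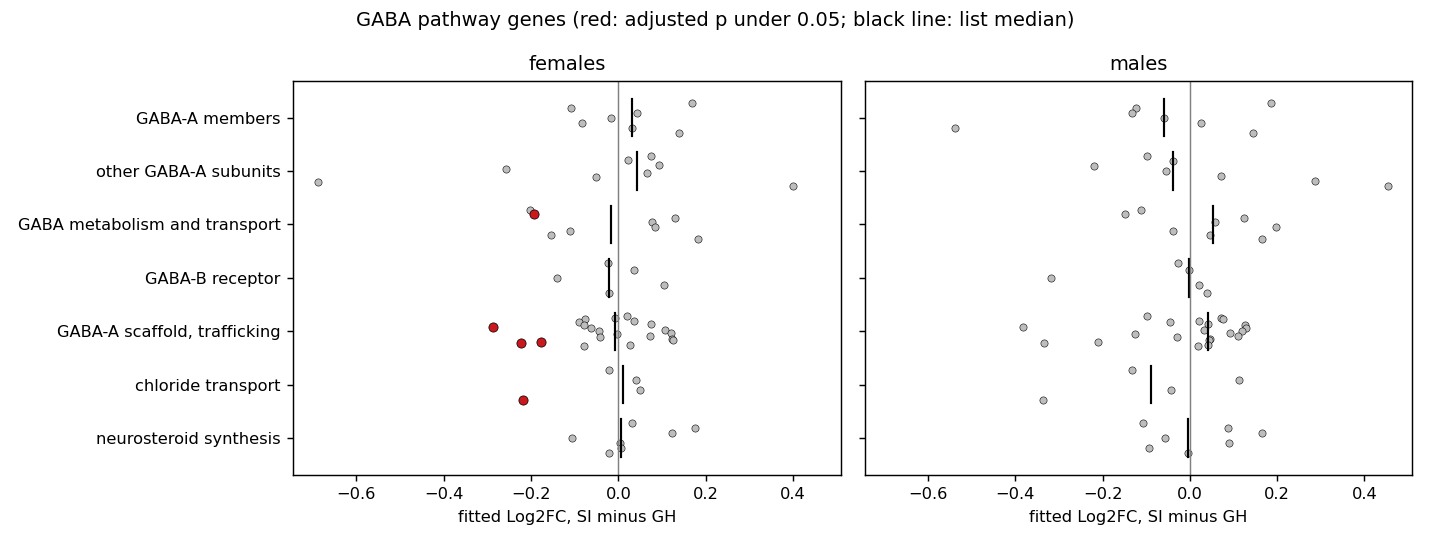
Fitted Log2FC (SI minus GH) of each tested gene of 7 GABA pathway lists in females and males, with the list median as a black line and genes with an adjusted p under 0.05 in red. The red points are Aldh5a1, Iqsec3, Trak1, Trak2 and Wnk1 in females, all below 0, and no point is red in males.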

How the data were processed

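RNA from hippocampus of 30 mice was sequenced as polyA-selected libraries. The deposited table holds raw counts per Ensembl gene, which the authors made after trimming with Trimmomatic 0.39 and quantification with Salmon 1.8.0 on GRCm39 (tools and build from the submitters' processing notes, which also list DESeq2 1.24.0). How transcript estimates became whole counts is not given in the sources used here, and every gene row sums to at least 100 counts. Groups and animal numbers were taken from the labels. Each mouse is a separate animal, and no libraries in a group agreed within sampling noise (lowest chi-square per degree of freedom 9.29).

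Counts were tested with edgeR 4.0.16 (R 4.3.3, quasi-likelihood, TMM, filter with a minimum count of 10 and a minimum total of 15) within each sex. Surrogate variables from sva 3.50.0 were covariates, 3 in females and 2 in males, and 4 in the sex by housing fit of all mice. Adjusted p is by Benjamini-Hochberg, over all genes in a fit. Standard errors were taken as the Log2FC divided by the square root of F. CPM used TMM factors over the 30 libraries, and log2 CPM used a prior count of 2. DESeq2 1.42.0 and limma 3.58.1 served as alternatives. Scripts were tested on simulated data. Gene positions and transcript lengths came from GENCODE vM1 (NCBIM37) by Ensembl ID, not from the build of the counts. The 7 members and all gene lists were chosen with earlier results of these data known. All members were named. Of each other list, the called genes were named or, where none was called, the 2 with the smallest p in each sex, and of genes like a member the 2 with the highest r.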

Additional observations from a re-analysis of the deposited data

Results flagged for a closer look

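Among the 28 sets of values tested (7 subunit genes in 4 groups), 3 had 1 library far from the others, and chance gives about 1 in 20. The measure was the gap of that library to the nearest value over the whole range of the group, both in log2 CPM. Gabra3 was lowest in GH female 71, at 47.4 CPM against 57.1 CPM in the next (a gap of 0.6 of the log2 range). Gabrb2 was lowest in GH female 78, at 35.7 CPM against 61.2 CPM (0.73 of the log2 range), and in SI female 53, at 32.6 CPM against 51.8 CPM (0.535 of the log2 range). The length slopes of the libraries of GH female 78 and SI female 53 were -0.11 and -0.13, the lowest of the females. The low Gabrb2 values of SI males 25, 33, 38 and 39 did not pass the same limit, since 4 values lay low together.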

How the results depend on the processing

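No paired analysis was possible because the labels number mice individually and no number is shared between groups. Members called in females went from 0 to 1 (Gabra2) with DESeq2, members with a sex by housing interaction from 0 to 1 (Gabrb2) with 1 surrogate variable more, and members called in males ranged from 0 to 2 when single libraries were left out, with 2 (Gabra3 and Gabrb2, both lower) without SI male 27. The Gabrb2 Log2FC in females was -0.018 with no surrogate variables, -0.024 with 1 fewer, -0.030 with the position digit of the titles, -0.031 with limma-voom and -0.0050 without a filter on low counts, and the Gabrd Log2FC in males was -0.043 with all 4 groups in one fit. Without surrogate variables the interaction was 0.76 for Gabra2, -0.11 for Gabra3 and 0.15 for Gabrd, and with 1 fewer it was -0.026 for Gabra3 and 0.00374 for Gabra5. For Gabra5 it was also 0.00033 with DESeq2, 0.00264 without a filter and 0.00291 without SI males 25, 33 and 39. When single libraries were left out, the Log2FC ranged from -0.072 to 0.010 for Gabra5 and from -0.078 to 0.062 for Gabrb2 in females, and from -0.045 to 0.12 for Gabrb1, from -0.11 to 0.011 for Gabra5 and from -0.037 to 0.28 for Gabrd in males. The cause of these changes was not tested. Over all genes, 624 calls in females became 1262 with DESeq2, 1083 with 1 surrogate variable more, 1491 with the length and GC trend removed, and 0 with no surrogate variables (1875 at an unadjusted p under 0.05) or the position digit (1915). Without GH females 46, 78, 48 or 54 they were 1373, 1077, 273 and 226, and without SI females 52, 49, 73, 63 or 68 they were 1062, 288, 290, 169 and 88. In males the 0 calls became 44 with DESeq2 and 2414 without SI male 27, and in the interaction 10 with 1 surrogate variable more, 11 with DESeq2 and 3 without a filter. Males without SI males 25, 33 and 39 and without surrogate variables was added after seeing the data, with 0 calls and a Gabrb2 Log2FC of -0.17. Every member had at least 40 counts in every library, and the part of depth in these values was not tested.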
